A study of Mus musculus with 21 samples.

Results

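The 10 genes described here are expressed by endothelial cells in general, the cells that line every blood vessel, and are widely used to mark them. They are Pecam1, Cdh5, Kdr, Flt1, Tek, Tie1, Vwf, Eng, Emcn and Egfl7. They were chosen by name, and all 10 were found among the 46517 Ensembl genes of the deposited counts table. All 10 also passed the expression filter of edgeR, which kept 14324 genes for testing.

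The counts come from bulk RNA-sequencing of heart tissue from 4 control (Notch3+/+) and 3 Notch3-/- mice. The mice were on the C57BL/6J strain and aged 10 to 14 months. The Notch3-/- mice carry a lacZ insertion in the Notch3 locus in all cells, so that the loss is not limited to 1 cell type, and the sex of the sequenced mice is not given. Each mouse gave 3 technical libraries, 21 in all, with 464390 to 2134368 counts per control library (median 1196276) and 979804 to 2427783 per Notch3-/- library (median 1583662). Summed per mouse, the totals were 3046326 to 4638786 counts in control and 3828763 to 5167869 in Notch3-/- mice, and the mouse was the replicate. Control mice 1 and 2 have labels that start with X and the other 5 mice labels that start with k, so differences between genotypes were also computed within the k-labelled mice. Because the RNA is from whole tissue, fewer endothelial cells and less RNA per endothelial cell cannot be told apart.

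Endothelial cells hold to each other through VE-cadherin and PECAM-1 and read growth signals through VEGF receptors and the Tie receptors for angiopoietins. Notch3 is a receptor of the mural cells, the smooth muscle cells and pericytes that wrap the endothelial tube, and signals pass between both layers. The comparison of genotypes therefore asks whether general endothelial transcripts differed in hearts in which the mural receptor is missing.

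Notch3 itself checked the genotype labels. Control mice 1 to 4 had 174, 200, 245 and 185 counts of Notch3, and Notch3-/- mice 1 to 3 had 22, 36 and 25. The log2 difference was -3.16 (SE 0.23, edgeR FDR 0.00173 after Benjamini-Hochberg adjustment), and all 3 Notch3-/- mice lay below all 4 controls.

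The libraries of Notch3-/- mice 1 and 2 stood apart from the rest in their liver transcripts. The summed CPM (counts per 1e+06 counts, scaled by TMM factors) of 24 hepatocyte genes was 297, 418, 145 and 191 in control mice 1 to 4. It was 9215, 17836 and 341 in Notch3-/- mice 1 to 3. As the median log2 difference of the tested genes from the control mean, the level of Notch3-/- mouse 3 was 1.56, above that of every control (at most 1.41), beside 7.06 and 8.47 in Notch3-/- mice 1 and 2. Of these genes 21 were tested, and all 21 were higher at an unadjusted p under 0.05 in edgeR with 0 at an FDR under 0.05. Of all 14324 genes tested 1051 were higher at that p. For 11 of the 21 all 3 Notch3-/- mice, mouse 3 included, lay above all 4 controls. The groups did not overlap for 8.53% of all genes tested. Trf, which encodes transferrin, was the most abundant gene of the list. Control mice had 400, 682, 433 and 294 counts of it, whereas the Notch3-/- mice reached 5197, 8511 and 689. Scaled to CPM, Notch3-/- mouse 3 stood at 130, inside the control range of 98.2 to 144. Notch3-/- mice 1 and 2 had 1420 and 1790 CPM. In control mice 17 of the 24 genes had a mean of at least 1 CPM, and Apoc3, Apob, Serpina1a, Serpina1c, Serpina3k, Fgb, Fgg, Cps1, Cyp3a11, Tat, Pck1, G6pc and Hpd were at 0 in at least 1 mouse. Liver has endothelium of its own, and the summed CPM of 9 genes of liver sinusoidal endothelium was 45.1, 44.5, 32.2 and 34.7 in the controls against 94.8, 153 and 44.8 in the Notch3-/- hearts. By this sum Notch3-/- mouse 3 was within the control range, whereas the other two Notch3-/- mice were above every control mouse. For 2 of the 5 tested sinusoidal genes, Dnase1l3 and Stab2, all 3 Notch3-/- mice lay above every control, beside 8.53% of all genes without overlap. Mouse 3 was at 3.59 CPM against at most 2.12 CPM for Dnase1l3 and at 4.54 CPM against at most 4.47 CPM for Stab2. Fcgr2b was the most abundant of them, and Clec4g, Oit3, Wnt2 and Rspo3 were at 0 in at least 1 mouse. Stab2 had 2, 18, 19 and 12 counts in the controls, and 75, 122 and 24 were counted in the Notch3-/- hearts. The part of liver RNA in the values of the 10 genes was not tested directly, and values from Notch3-/- mouse 3 alone are given beside the main differences. Some differences are also given from a fit with the hepatocyte level, the mean log2 CPM of the 24 genes, as a covariate. With Notch3-/- mice 1 and 2 far above every control, genotype and hepatocyte level are hard to separate in that fit. Its genotype differences lean on Notch3-/- mouse 3. It called 0 of 14324 genes, so Notch3 was not called either.

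Upstream sequences were taken from RefSeq (GRCm38.p6), where 7 of the 10 genes had an entry (Egfl7, Eng, Emcn, Tek, Tie1, Kdr and Flt1). The 4 receptor genes that form the pairs compared below are shown by the 100 bases before their RefSeq start, 5′ to 3′ on the strand of the gene. RefSeq and GENCODE place some starts differently, so the window of Tie1 lies inside the gene at its GENCODE position and the window of Kdr overlaps the edge of its gene. Capitals mark GGAA or its reverse complement TTCC, the core of the motif bound by ETS factors, a family to which several endothelial regulators belong.
Kdr, chr5:75978456-75978555, minus strand: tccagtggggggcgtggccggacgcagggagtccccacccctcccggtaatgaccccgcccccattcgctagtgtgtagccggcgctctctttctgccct
Flt1, chr5:147726012-147726111, minus strand: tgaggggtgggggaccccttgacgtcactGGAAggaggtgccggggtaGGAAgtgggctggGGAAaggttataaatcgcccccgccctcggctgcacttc
Tek, chr4:94739189-94739288, plus strand: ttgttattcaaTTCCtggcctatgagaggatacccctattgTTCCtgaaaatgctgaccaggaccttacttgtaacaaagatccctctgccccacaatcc
Tie1, chr4:118489850-118489949, minus strand: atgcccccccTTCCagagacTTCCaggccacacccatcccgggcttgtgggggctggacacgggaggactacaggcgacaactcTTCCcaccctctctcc

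In these windows GGAA or TTCC occurred 3 times in Flt1, 2 times in Tek and 3 times in Tie1, and not in Kdr, whose window of 250 bases held 4. The letters are common, since 66.8% of all 32851 promoters held them within 100 bases and 93.4% within 250 bases. Of the 4 genes only Flt1 held TATAAA or TTTATA within 100 bases, as did 5.56% of all promoters. The longer motif GGGCGG, or CCGCCC on the other strand, occurred 1 time each in Kdr and Flt1 and was found in 24.7% of all promoters. Matches of different motifs may overlap, and a match describes letters only.

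None of the 10 genes was called different between genotypes. With edgeR's quasi-likelihood test 0 of 10 had a Benjamini-Hochberg FDR under 0.05 with a fold change of at least 1.5, against 1 of 14324 genes tested (0.00698%), which was Notch3. At an unadjusted p under 0.05 the count was also 0 of 10, against 1488 of all genes (10.4%). It was 2 of 10 with the hepatocyte level as a covariate, among the k-labelled mice and in both limma-voom fits of 21 libraries, the highest count under any alternative. All genes at that p numbered 633 of 14324 with the covariate, 949 of 14872 among the k-labelled mice, and 1484 and 1443 of 11193 in the 21-library fits without and with the replicate number as a block. DESeq2 and limma-voom on the 7 mice called 0 of 10 as well, with 0 and 1 of them at an unadjusted p under 0.05. At that p stood 1928 of 17013 genes with DESeq2 and 1104 of 14324 with limma-voom on the 7 mice. DESeq2 called 601 of its 17013 genes, and none of these was among the 10. The lowest FDR of the 10 was 0.499 and the highest 0.988 (edgeR, Benjamini-Hochberg). Their log2 fold changes ran from -0.29 (Flt1) to 0.43 (Kdr), 6 above and 4 below 0, with a median of 0.04 beside -0.00 over all genes tested.

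The size of difference that the data still allow was narrow for some genes and wide for others. The 95% interval of the difference lay between 1.5-fold lower and 1.5-fold higher for 3 of the 10 genes, Tie1, Eng and Egfl7, against 4852 of all genes tested (33.9%) and 70.1% of the 3548 genes within the range of abundance of the 10. The interval of Vwf was the widest, from -0.80 to 0.59 on the log2 scale. For Kdr it ran from 0.927-fold to 1.96-fold, the highest upper bound of the 10. The median SE of the log2 fold changes was 0.17 for the 10 genes and 0.15 for the genes of that range. PCR reads without molecular identifiers are not independent molecules, so the counts themselves bear amplification error in addition to counting error.

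**Figure D1:**
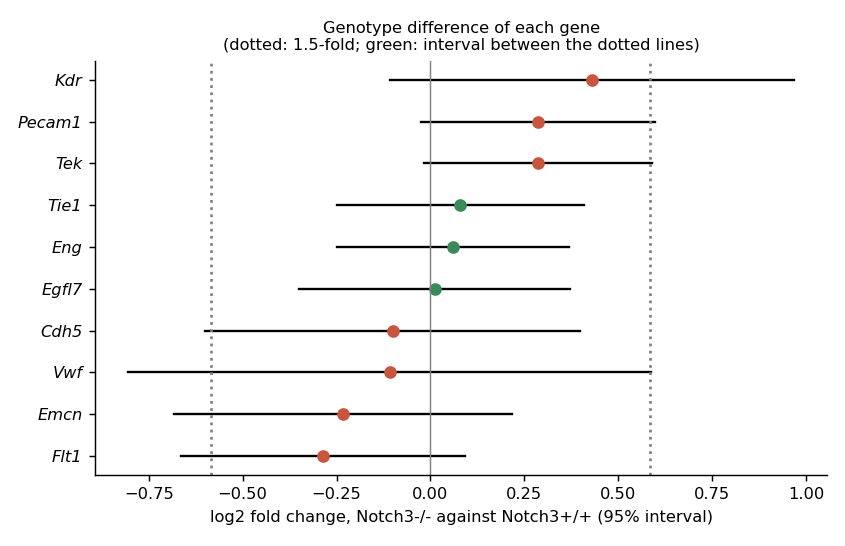
Log2 fold change (horizontal axis) of each of the 10 genes in Notch3-/- against control mice, with its 95% interval from edgeR. Dotted lines mark 1.5-fold either way. Green points, Tie1, Eng and Egfl7, have intervals between those lines, and every interval includes 0.

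Pecam1 encodes PECAM-1 (CD31), an adhesion molecule of endothelial junctions that platelets and leukocytes carry too. The gene (ENSMUSG00000020717) lies at chr11:106654217-106750628 on the minus strand in the GENCODE vM21 annotation of GRCm38, from which all gene positions are given. It had 234, 201, 181 and 226 CPM in control mice 1 to 4 and 255, 293 and 222 CPM in Notch3-/- mice 1 to 3. Notch3-/- mice 1 and 2 had the highest values, while mouse 3 lay among the controls, so the groups overlap. Mean CPM was 211 ± 24.1 (SD, n = 4) in control and 257 ± 35.5 (SD, n = 3) in Notch3-/- mice. This gave a log2 difference of 0.29 (SE 0.14, FDR 0.504 with edgeR and Benjamini-Hochberg adjustment). The 2 mice with high values were also those with high liver transcripts, and the log2 difference was 0.08 for Notch3-/- mouse 3 alone against the controls and 0.01 with the hepatocyte level as a covariate. It was 0.33 among the k-labelled mice, 0.37 without Notch3-/- mouse 3 and 0.18 without Notch3-/- mouse 2.

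Cdh5 encodes VE-cadherin, the cadherin of endothelial adherens junctions (ENSMUSG00000031871, chr8:104101625-104144511, plus strand). It had 123, 83.0, 136 and 174 CPM in control mice and 122, 132 and 106 CPM in Notch3-/- mice. All 3 Notch3-/- values fell inside the range of the controls, which spanned a factor of more than 2 between mice 2 and 4. The log2 fold change was -0.10 (SE 0.22, edgeR FDR 0.914 after Benjamini-Hochberg adjustment), and it was 0.08 without control mouse 4. It was -0.27 for Notch3-/- mouse 3 alone and -0.37 among the k-labelled mice.

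Kdr encodes VEGFR2, the main signalling receptor for VEGF-A (ENSMUSG00000062960, chr5:75932827-75978458, minus strand). Control mice 1 to 4 had 555, 609, 1025 and 871 counts of Kdr, or 183, 128, 241 and 291 CPM. In Notch3-/- mice 1 to 3 it had 1018, 1193 and 1703 counts, or 278, 251 and 322 CPM. The X-labelled control mice 1 and 2 were the low ones, and control mouse 4 lay above Notch3-/- mice 1 and 2. Mean CPM was 211 ± 70.5 (SD, n = 4) and 284 ± 35.9 (SD, n = 3). The log2 fold change of 0.43 was the highest of the 10 genes (SE 0.24, FDR 0.571 with edgeR and Benjamini-Hochberg adjustment), and it was 0.09 among the k-labelled mice only and 0.25 without control mouse 2. It was 0.62 for Notch3-/- mouse 3 alone, which had far fewer liver transcripts than Notch3-/- mice 1 and 2. With the hepatocyte level as a covariate, in a fit that leans on that mouse, it was 0.93 (edgeR, unadjusted p = 0.0198, FDR 0.998). Technical library 2 of Notch3-/- mouse 3 had 522 CPM of Kdr. Its libraries 1 and 3 had 216 and 264 CPM, inside the range of the control mice. How far both values rest on library 2 was not tested.

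Flt1 encodes VEGFR1, which binds VEGF-A tightly with weaker signalling and also has a soluble form that holds the ligand back (ENSMUSG00000029648, chr5:147561604-147726011, minus strand). It had 102, 156, 116 and 111 CPM in control mice and 107, 103 and 88.9 CPM in Notch3-/- mice. Control mouse 2 had the highest value and Notch3-/- mouse 3 the lowest, with the other 5 mice between 102 and 116 CPM. The log2 fold change was the lowest of the 10, -0.29 (SE 0.17, edgeR FDR 0.591 after Benjamini-Hochberg adjustment). It was -0.45 for Notch3-/- mouse 3 alone, -0.19 among the k-labelled mice, -0.15 without control mouse 2 and -0.58 with the hepatocyte level as a covariate (edgeR, unadjusted p = 0.0439, FDR 0.998).

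**Figure D2:**
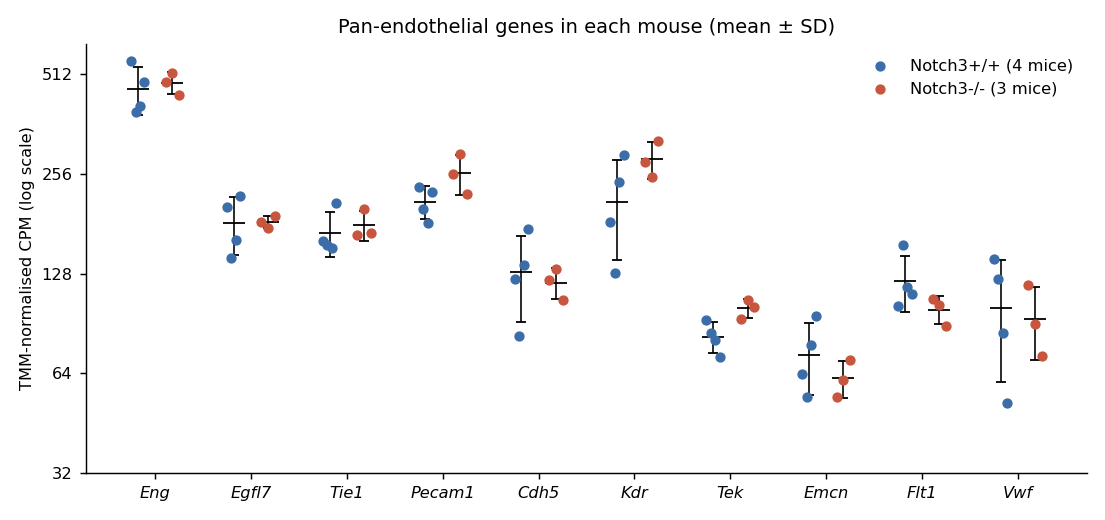
TMM-normalised CPM on a log axis for each gene, 1 point per mouse, with mean and SD per genotype. Genes stand in the order of their level per exon length in control mice. Tek is the only gene whose Notch3-/- values, 93.2 to 107 CPM, all lie above the control values, 71.5 to 92.9 CPM.

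Tek encodes TIE2, the receptor that binds angiopoietins (ENSMUSG00000006386, chr4:94739289-94874976, plus strand). Tek had 92.9, 84.9, 80.5 and 71.5 CPM in control mice and 93.2, 107 and 102 CPM in Notch3-/- mice. The groups did not overlap, although control mouse 1 and Notch3-/- mouse 1 were almost equal. Tek was the only 1 of the 10 genes with groups that did not overlap, against 1222 of all genes tested (8.53%), a share near that of the genes in general. Mean CPM was 82.4 ± 8.92 (SD, n = 4) and 100 ± 6.81 (SD, n = 3). For Tek this gave a log2 difference of 0.29 (SE 0.14, FDR 0.499 with edgeR and Benjamini-Hochberg adjustment), 0.30 for Notch3-/- mouse 3 alone and 0.40 among the k-labelled mice.

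Tie1 encodes the partner receptor of TIE2, which binds no angiopoietin directly (ENSMUSG00000033191, chr4:118471191-118490061, minus strand). It had 161, 156, 153 and 209 CPM in control mice and 167, 200 and 170 CPM in Notch3-/- mice. Control mice 1 to 3 were close together and control mouse 4 was above every other mouse. The log2 fold change was 0.08 (SE 0.15, edgeR FDR 0.891 after Benjamini-Hochberg adjustment), with a 95% interval from -0.25 to 0.41. It was 0.0069 for Notch3-/- mouse 3 alone and -0.019 among the k-labelled mice.

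Eng encodes endoglin, a co-receptor for BMP9 and BMP10 (ENSMUSG00000026814, chr2:32646595-32682669, plus strand), and had the highest counts of the 10. It had 561, 393, 409 and 486 CPM in control mice and 485, 517 and 443 CPM in Notch3-/- mice. The Notch3-/- values all fell inside the control range, and the log2 fold change was 0.06 (SE 0.14, edgeR FDR 0.918 after Benjamini-Hochberg adjustment), and -0.059 for Notch3-/- mouse 3 alone. Eng shares 61 exon bases with Fpgs on the opposite strand, for which the controls had 49, 100, 88 and 56 counts, and the Notch3-/- hearts 159, 655 and 119. Use of the strand in counting is not given in the sources used here, so reads of the shared bases cannot be assigned with certainty.

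Vwf encodes von Willebrand factor, which binds platelets and is stored in endothelial granules (ENSMUSG00000001930, chr6:125546774-125686679, plus strand). Control mice had 431, 584, 360 and 156 counts of it, or 142, 123, 84.7 and 52.1 CPM. In Notch3-/- mice it had 432, 427 and 382 counts, or 118, 89.8 and 72.2 CPM. Control mice held both the highest and the lowest values, with mouse 1 at more than 2 times the level of mouse 4. The log2 fold change was -0.11 (SE 0.31, FDR 0.938 with edgeR and Benjamini-Hochberg adjustment), and it turned to 0.44 among the k-labelled mice. In the other direction it was -0.48 for Notch3-/- mouse 3 alone, -0.32 without control mouse 4 and -0.67 with the hepatocyte level as a covariate.

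Emcn encodes endomucin, a sialoglycoprotein of capillary and venous endothelium (ENSMUSG00000054690, chr3:137341067-137432185, plus strand). It had 63.6, 54.4, 77.6 and 95.5 CPM in control mice and between 54.1 and 70.2 CPM, from 198, 290 and 371 counts, in Notch3-/- mice. The lowest Notch3-/- mouse was level with the lowest control. The log2 fold change was -0.23 (SE 0.20, edgeR FDR 0.734 after Benjamini-Hochberg adjustment), and it was 0.13 with the hepatocyte level as a covariate. It was -0.047 for Notch3-/- mouse 3 alone, -0.49 among the k-labelled mice and between -0.36 and -0.076 with 1 mouse left out.

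Egfl7 encodes a secreted protein of the vessel wall and hosts the endothelial microRNA miR-126 within its gene (ENSMUSG00000026921, chr2:26580014-26593120, plus strand). It had 204, 143, 162 and 220 CPM in control mice and 183, 176 and 191 CPM in Notch3-/- mice. The Notch3-/- mice lay close together inside the control range, and the log2 fold change was 0.01 (SE 0.16, edgeR FDR 0.988 after Benjamini-Hochberg adjustment). It was 0.071 for Notch3-/- mouse 3 alone and -0.063 among the k-labelled mice. Mature miR-126a-3p, from RefSeq, has the sequence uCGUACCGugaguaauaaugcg with its seed, bases 2 to 8, in capitals (GRCm38.p6, chr2:26591402-26591423, plus strand). Libraries of polyadenylated RNA do not measure mature microRNAs, and the Mir126a row, 73 bases of which lie in annotated exons of Egfl7, held at most 6 counts in any control mouse and at most 7 in any Notch3-/- mouse. The Mir126b row held 1 to 4 counts per mouse. Egfl7 also shares 264 exon bases with Gm20532 on the same strand and 64 with Agpat2 on the opposite strand, so its count is uncertain to that extent.

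Levels between genes were compared per 1000 exon bases. In control mice the order was Eng (114 CPM per 1000 bases), Egfl7 (50.8), Tie1 (34.5), Pecam1 (33.8), Cdh5 (30.7), Kdr (23.3), Tek (17.5), Emcn (13.5), Flt1 (8.98) and Vwf (6.25). On this scale only Eng was separate from its neighbour, with 97.2 to 139 CPM per 1000 bases over the 4 control mice against 39.8 to 61.5 for Egfl7. Every later pair of neighbours overlapped over the control mice. In Notch3-/- mice Pecam1 and Tie1 exchanged places, as did Kdr and Cdh5. With the length of the principal transcript in place of all exon bases Eng (135 CPM per 1000 bases) and Egfl7 (131) were almost equal at the top and Vwf was again at the bottom, while Emcn moved from place 8 to place 4.

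The 10 genes were also summed for each mouse. Summed CPM came to 1866, 1522, 1641 and 1936 in the controls against 1864, 1930 and 1787 in the Notch3-/- hearts. The mean was 1741 ± 193 (SD, n = 4) in control and 1860 ± 71.7 (SD, n = 3) in Notch3-/- mice, and all Notch3-/- values fell within the control range. Relative to the control mean, Notch3-/- mice had 6, 6 and 5 of the 10 genes higher, and control mice 5, 3, 3 and 7.

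The 3 technical libraries of a mouse differed from each other about as much as the summed values of different mice did. The SD of log2 CPM between technical libraries had a median of 0.27 over the 10 genes and the SD between mice of 1 genotype a median of 0.22, and the former was larger for 5 of the 10. A single library holds fewer counts than the sum, from 29 for Tek to 1189 for Eng. Kdr in Notch3-/- mouse 3 had 216, 522 and 264 CPM in its libraries. Vwf had the highest SD on both scales, 0.47 between technical libraries and 0.55 between mice, and Tek had the lowest between mice (0.14) despite 0.37 between libraries.

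**Figure D3:**
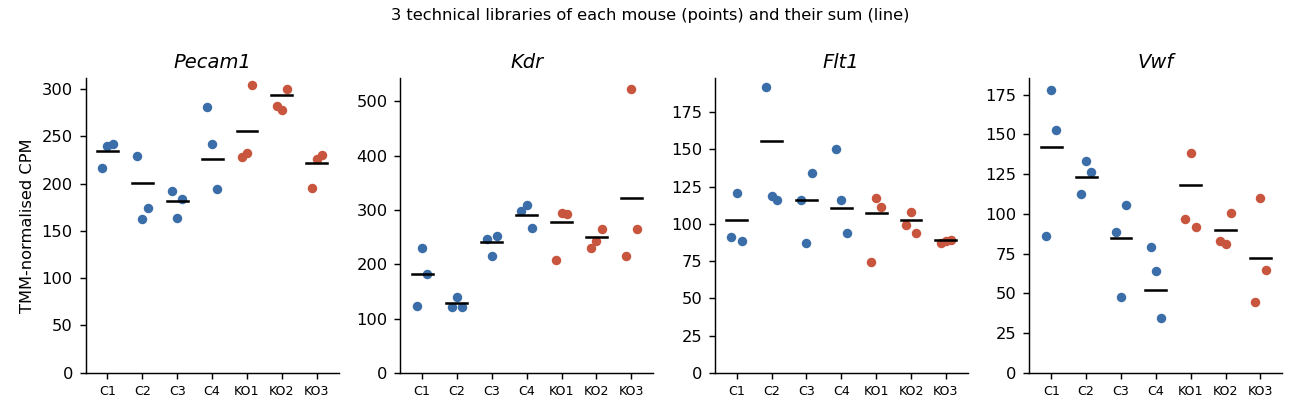
TMM-normalised CPM of Pecam1, Kdr, Flt1 and Vwf in each of 3 technical libraries (points) of control mice (C1 to C4) and Notch3-/- mice (KO1 to KO3), with the value of the summed counts as a line. Library 2 of KO3 reached 522 CPM for Kdr beside 216 and 264 CPM in its other libraries.

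Ratios of 2 genes within 1 mouse do not depend on scaling between mice. The log2 ratio of Flt1 to Kdr, the VEGF receptors, was -0.84, 0.28, -1.05 and -1.39 in the controls against -1.38, -1.29 and -1.86 in the Notch3-/- hearts. Control mouse 2 was the only mouse with more Flt1 than Kdr counts, and control mouse 4 fell among the Notch3-/- mice. The difference of the means was -0.76 (exact permutation p = 0.143, two-sided, Benjamini-Hochberg adjusted over 3 ratios 0.429). It was -0.41 without control mouse 2, -0.97 without control mouse 4 and -0.28 among the k-labelled mice. The log2 ratio of Tie1 to Tek, the angiopoietin receptor pair, averaged 1.04 ± 0.35 (SD, n = 4) in control and 0.83 ± 0.08 (SD, n = 3) in Notch3-/- mice (exact permutation p = 0.486). Control mouse 4, at 1.55, was above the other 6 mice, which lay between 0.74 and 0.93, and the difference of -0.20 was -0.03 without it and -0.41 among the k-labelled mice. The log2 ratio of Vwf to Pecam1 averaged -1.16 ± 0.66 (SD, n = 4) in control and -1.48 ± 0.32 (SD, n = 3) in Notch3-/- mice (exact permutation p = 0.457), and its difference of -0.32 turned to 0.13 among the k-labelled mice and ran from -0.64 to -0.17 with 1 mouse left out. The smallest p that 35 divisions of 7 mice can give is 0.0286.

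**Figure D4:**
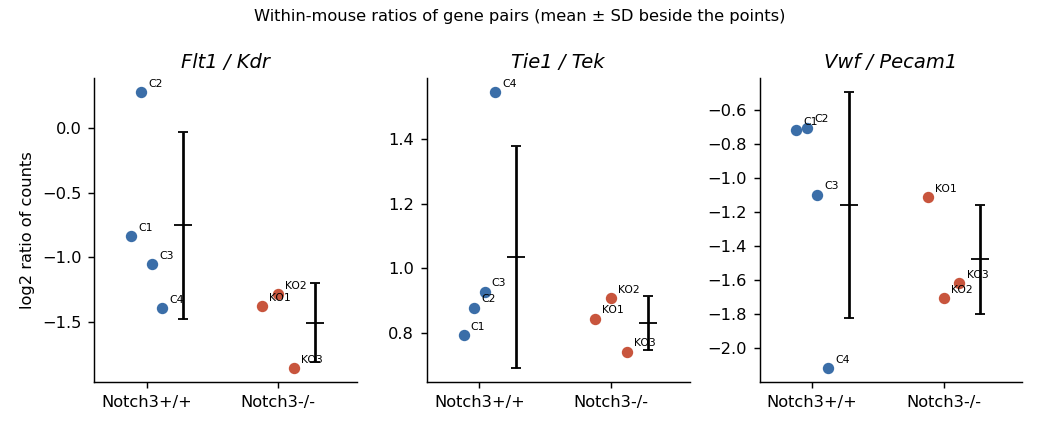
Log2 ratios of counts within each mouse for 3 gene pairs, 1 point per mouse, with mean and SD beside them. The genotypes overlap in all 3 pairs, and control mouse 2 (C2) for Flt1 to Kdr and control mouse 4 (C4) for the other 2 pairs lie farthest from their group.

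Other genes of the endothelium were described from fixed lists, each by its count and median. Over all 14324 genes tested 1051 were higher and 437 lower at an unadjusted p under 0.05 in edgeR, and both together are the 10.4% given above. Among 24 other pan-endothelial genes 0 had an FDR under 0.05 (edgeR, Benjamini-Hochberg), 2 were higher and 1 lower at an unadjusted p under 0.05, and the median log2 fold change was 0.15. Of these 16 had a log2 fold change above 0, against 7108 of all 14324 genes, and 4 had groups that did not overlap, against 8.53% of all genes. Taken as a median over the list of each gene's log2 distance to its control average, controls 1 to 4 stood at 0.01, -0.09, -0.01 and 0.09, whereas Notch3-/- hearts reached 0.20, 0.25 and 0.12, all 3 above every control. Clec14a, a membrane lectin of endothelium, had 39.2 ± 7.06 CPM (SD, n = 4) in control and 53.6 ± 3.49 CPM (SD, n = 3) in Notch3-/- mice (log2 fold change 0.46, edgeR FDR 0.369 after Benjamini-Hochberg adjustment). Cd34 was higher too at that p (211 ± 16.4 and 251 ± 8.00 CPM, log2 difference 0.25), and Cav1, the most abundant, had 322 ± 15.4 and 345 ± 24.2 CPM. Of 17 tested genes among 21 ligands and partners of the receptors, 1 was higher and 1 lower at that unadjusted p, with a median log2 fold change of -0.053. Jup, which encodes the junction protein plakoglobin, was the most abundant of them, with 845 ± 138 and 719 ± 49.2 CPM. Vegfb, a ligand of VEGFR1, had 139 ± 11.2 CPM in control and 94.9 ± 22.8 CPM in Notch3-/- mice (log2 fold change -0.55, edgeR FDR 0.320 after Benjamini-Hochberg adjustment). Angpt2, an angiopoietin that can block TIE2, had 8.74 ± 3.16 CPM (SD, n = 4) in control and 16.6 ± 7.29 CPM (SD, n = 3) in Notch3-/- mice (log2 fold change 0.95, edgeR FDR 0.438 after Benjamini-Hochberg adjustment). Among 16 tested endothelial transcription factors 2 were higher, including Ets1, and 1 lower, Klf2, at an unadjusted p under 0.05, again with 0 past the FDR of edgeR. Their median log2 fold change was -0.0034. Ets1 had 67.1 ± 9.61 and 86.3 ± 4.92 CPM, Klf2, a factor induced by blood flow, 23.8 ± 8.02 and 13.8 ± 2.07 CPM, and Ets2, the most abundant, 133 ± 29.4 and 152 ± 7.77 CPM. The counts at that p in these lists, 3 of 24, 2 of 17 and 3 of 16 genes, stand beside 10.4% of all genes, and nothing particular to the lists is read from them.

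Of 11 genes of heart capillary endothelium 10 had a log2 fold change below 0, against 7216 of all 14324 genes, with a median of -0.25. The groups overlapped for all 11 genes, and 1 of them, Rgcc, had an unadjusted p under 0.05. Summed, they had 2050, 2055, 1834 and 2072 CPM in the controls against 1710, 1848 and 1653 CPM in the Notch3-/- hearts, so that control mouse 3 fell among the Notch3-/- mice. By the median over genes, in which Cxcl12 counts no more than the others, controls 1 to 4 stood at 0.04, -0.07, -0.03 and -0.07 and the Notch3-/- hearts at -0.24, -0.17 and -0.22 on the log2 scale, so that here the groups did not overlap. Cxcl12 was the most abundant of them, at 575 ± 89.2 CPM in control and 547 ± 52.2 CPM in Notch3-/- mice. Arterial, venous and lymphatic endothelium and endocardium had median log2 fold changes of -0.01, 0.13, 0.19 and -0.19, over 10, 5, 6 and 5 tested genes. At an unadjusted p under 0.05, which 10.4% of all genes passed, 0 arterial and 0 venous genes were found, 1 lymphatic gene was higher and 1 gene of the endocardium was higher.

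**Figure D5:**
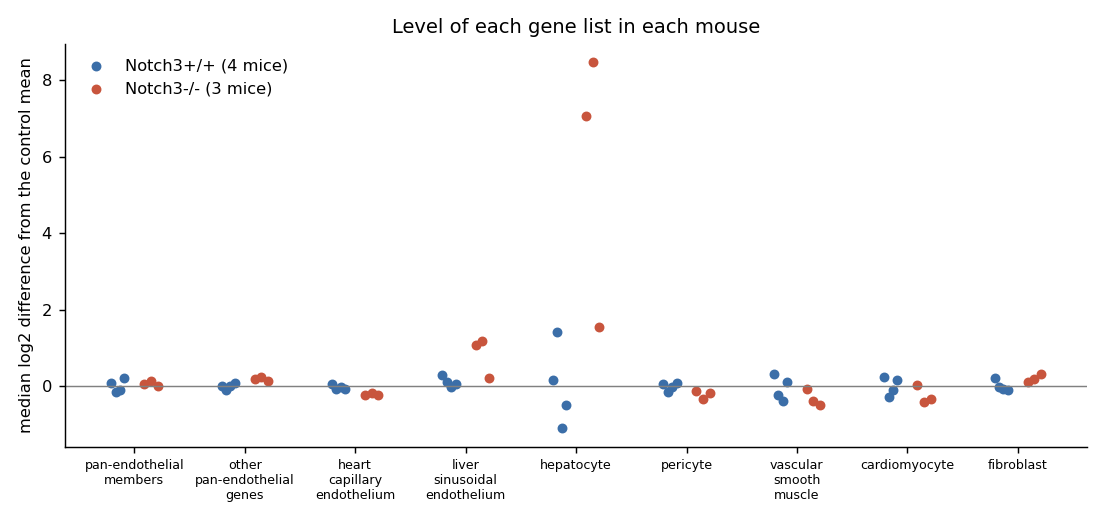
Level of 9 gene lists in each mouse, as the median log2 difference of their tested genes from the control mean. The pan-endothelial genes lie between -0.16 and 0.20 in all 7 mice, while hepatocyte genes reach 7.06 and 8.47 in Notch3-/- mice 1 and 2.

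Of the cells around the endothelium, all 12 cardiomyocyte genes had a log2 fold change below 0 (median -0.25) with 0 at an unadjusted p under 0.05, and Ttn, the most abundant, had 12364 ± 1523 CPM (SD, n = 4) in control and 11509 ± 3254 CPM (SD, n = 3) in Notch3-/- mice (log2 difference -0.10). Of the atrial genes Myl4 had 3.76 to 11.2 CPM in control and 2.84 to 4.65 CPM in Notch3-/- mice, and Nppa 27.0 to 159.7 CPM and 42.6 to 189.7 CPM. Pericyte and vascular smooth muscle genes had medians of -0.17 and -0.13, each with 0 genes higher and 2 of 6 tested lower at an unadjusted p under 0.05, against 437 lower of all 14324. Myh11, smooth muscle myosin, had 121, 97, 45 and 59 counts in the controls, while 12, 24 and 19 were counted in the Notch3-/- hearts (log2 difference -2.49, edgeR FDR 0.118 after Benjamini-Hochberg adjustment). Rgs5, a pericyte gene, had 535 ± 30.3 CPM in control and 422 ± 27.4 CPM in Notch3-/- mice (log2 fold change -0.34, edgeR FDR 0.249 after Benjamini-Hochberg adjustment). Fibroblast, leukocyte, erythroid and platelet genes had medians of 0.26, 0.22, -0.48 and -1.05 over 8, 7, 5 and 3 tested genes. At an unadjusted p under 0.05 in edgeR 4 fibroblast genes were higher and 1 lower, with 0 leukocyte genes either way, and 2 erythroid genes and 1 platelet gene were lower. Of all 14324 genes tested 1051 were higher and 437 lower at that p. Platelets carry PECAM-1 and von Willebrand factor too, and their most abundant listed gene, Pf4, had 20.1 ± 5.89 CPM (SD, n = 4) in control and 18.1 ± 0.777 CPM (SD, n = 3) in Notch3-/- mice, a log2 difference of -0.15. Ppbp, a platelet chemokine, had 11, 8, 15 and 35 counts in the controls and 4, 3 and 8 in the Notch3-/- hearts (log2 difference -2.16, edgeR FDR 0.322 after Benjamini-Hochberg adjustment). For Itga2b, a platelet integrin, the log2 difference was -1.05 (edgeR FDR 0.687). The part of platelets in the values of Pecam1 and Vwf was not tested.

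Genes outside the lists were ranked by how closely their log2 CPM, centred over the 7 mice, followed the median of the 10 genes. Among 10564 genes with a mean of at least 10 CPM the nearest were Usp31, Sbf1, Mink1, Heatr6 and Gm20427, with root mean square distances of 0.03 to 0.05 over 7 mice. Of the 10 genes themselves Tie1 lay nearest to their median (0.09) and Vwf farthest (0.53).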

How the data were processed

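The authors deposited raw counts, whole numbers of reads per Ensembl gene, for 21 libraries of polyadenylated RNA that was amplified by PCR and fragmented with Tn5. The notes of the submitters name the mm10 build and CASAVA. The aligner, the counting program and the use of strand or of duplicates are not given in the sources used here. Of 46517 gene identifiers 46005 were found in GENCODE vM21, and 92 ERCC rows were left out. Counts of 3 technical libraries were summed per mouse. Genotypes were compared in R 4.3.3 with edgeR 4.0.16 (filterByExpr, TMM, quasi-likelihood F-test, Benjamini-Hochberg adjustment over all genes tested), with calls at an FDR under 0.05 and a fold change of at least 1.5. Log2 CPM used a prior count of 2. Intervals of 95% came from the SE of the fit. DESeq2 1.42.0, limma 3.58.1, other scalings, filters and subsets of mice and libraries were alternatives, and the fit was tested on simulated data. Ratios were compared by a two-sided exact permutation test. Named genes were the 10 genes, Notch3, the miR-126 rows, of each list the most abundant gene and up to 2 with the smallest p, and the 5 nearest genes. Those of the endothelial lists take most of the space, and not all of the others are printed. Members and lists were chosen with earlier results of these data known.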

Additional observations from a re-analysis of the deposited data

Results flagged for a closer look

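Of 91 values checked 9 had 1 control mouse far from the other 3, measured as its gap to the nearest mouse divided by the range of the group. Chance gives about 1 in 20 such cases, and only the 4 control mice were checked, since 3 mice are too few. Among the 10 pan-endothelial genes this held for Tie1 (0.841), with control mouse 4 high. It held for the summed CPM of the endothelial transcription factors (0.935, control mouse 2 low), of heart capillary endothelium (0.912, control mouse 3 low) and of lymphatic endothelium (0.838, control mouse 2 low). Of single named genes it held for Clec14a (0.926), Ets2 (0.868), Gja5 (0.904), Stab2 (0.900) and Col1a1 (0.987). Apart from these, 34 counts fell on the 92 ERCC spike-in rows over all libraries, above the 3 counts that a count of 0 allows.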

How the results depend on the processing

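The count of 0 called among the 10 pan-endothelial genes was the same under all 24 alternatives, and the lowest FDR any of them reached was 0.226. The median log2 fold change of the 10 genes ranged from -0.12 to 0.10. The number of genes called among all genes was 1 in the reported fit and ranged from 1 to 936 with 1 mouse left out, the highest without Notch3-/- mouse 3. It was 601 with DESeq2, 639 with every gene of at least 1 count, 0 among k-labelled mice, 0 with the hepatocyte level as a covariate, 48, 39 and 77 with technical library 1, 2 or 3 alone, 65 with limma-voom on 21 libraries and 62 with the technical replicate number added as a replicate block. Libraries of the same number in other mice had a median correlation of -0.01 in their deviations, so the numbers do not pair the mice. In the replicate block the log2 differences of Flt1 to Kdr, Tie1 to Tek and Vwf to Pecam1 were -0.73, -0.21 and -0.36. Each mouse has 1 library of each number, so the block cannot move them from the mean of the libraries. Of 230 log2 fold changes of the 10 genes under alternatives 24 changed sign. With 1 mouse left out values ran from -0.32 to 0.10 for Vwf, -0.017 to 0.17 for Eng, -0.095 to 0.12 for Egfl7, -0.27 to 0.079 for Cdh5 and -0.0065 to 0.19 for Tie1. Among k-labelled mice Tie1 (-0.019), Vwf (0.44) and Egfl7 (-0.063) changed sign, and the ratio of Vwf to Pecam1 turned to 0.13. With Notch3-/- mouse 3 alone it was Eng (-0.059), with the covariate Eng (-0.068) and Emcn (0.13), and with every gene of at least 1 count Egfl7 (-0.0034). With library 1 alone they were Tek (-0.11), Tie1 (-0.27) and Eng (-0.095), with library 2 Cdh5 (0.052), Vwf (0.060), Eng (-0.0024) and Egfl7 (-0.14), and with library 3 Egfl7 (-0.089). Pecam1, Kdr and Flt1 changed sign under none of the 23 settings run on them. The ratios of Notch3-/- mouse 3 alone to the controls, chosen after seeing the data, differed by -1.11, -0.29 and -0.46, in the same order. The causes were not tested. With 4 and 3 mice, intervals of 7 of the 10 genes reach past 1.5-fold.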
